A study of Mus musculus with 8 samples.

Results

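The exocyst was followed through 9 genes, Exoc1, Exoc2, Exoc3, Exoc4, Exoc5, Exoc6, Exoc6b, Exoc7 and Exoc8, out of 25700 genes counted in brain endothelial cells of mouse pups. They were taken by name, as all genes of the complex in the GENCODE M21 annotation of GRCm38, because Exoc4 had been seen to be nearly doubled in the mutant. The cells came from C57BL/6 pups at postnatal day 6 and were primary and uncultured. Pups labelled GLUT1EC-/-, for an endothelial knock-out of the glucose transporter GLUT1 (gene Slc2a1), are called KO (n = 4), and the controls were wild type (WT, n = 4). The sources used here name neither the Cre driver nor the deleted exons. Cells were sorted by flow cytometry into lysis buffer and poly(A) RNA was sequenced, with 1 library per pup. The value of Exoc4 in the comparison of KO with WT guided the choice of the complex, so its values are a description and its calls support nothing. The tests that bear on the question are those of the other 8 genes.

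The exocyst is a tether that holds secretory vesicles at the plasma membrane before SNARE proteins fuse the membranes. It is built from 2 modules of 4 subunits each. Exoc1 to Exoc4 (Sec3, Sec5, Sec6 and Sec8 in yeast) form the first, and Exoc5 to Exoc8 (Sec10, Sec15, Exo70 and Exo84) form the other, with Exoc6 and Exoc6b as alternative forms of the Sec15 subunit. In adipocytes the complex takes part in the delivery of glucose transporter vesicles to the surface, and in endothelium it has been linked to the release of Weibel-Palade bodies.

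Exoc4 lies on chromosome 6, chr6:33249085-33973979 on the plus strand of GRCm38, and spans 724895 bases, the longest of the 9 genes. The 207 bases that precede its annotated first base, chr6:33248878-33249084, are shown because they lie at the start of the member whose level differed most. They come from the RefSeq promoter table for GRCm38.p6, which held all 9 genes. Capitals mark the single match to the consensus half-site of the transcription factor p53. That motif was chosen after earlier results of these KO libraries had been seen, and p53 activity was not tested here.

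Exoc4: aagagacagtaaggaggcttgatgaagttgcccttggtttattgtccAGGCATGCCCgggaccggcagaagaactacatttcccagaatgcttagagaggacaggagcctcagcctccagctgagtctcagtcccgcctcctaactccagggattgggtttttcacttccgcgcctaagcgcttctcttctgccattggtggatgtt

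The match covered positions -203 to -194 from the RefSeq start of Exoc4. A match to this consensus, read on both strands, was present for 9.55% of the 27025 genes in the table, whose windows hold 300 bases (250 before and 50 after each start). None of the windows of the other 8 members held one. The GGGCGG motif, read on both strands, was found near Exoc1, Exoc3, Exoc6, Exoc6b, Exoc7 and Exoc8 and for 38.2% of all genes. CCGGAAG was found near Exoc1, Exoc3 and Exoc5, against 9.93% of all genes, and TGACGT near Exoc3, Exoc5 and Exoc8, against 8.37%. CACGTG, found for 8.09% of all genes, occurred near Exoc1. None of these 4 motifs was present in the Exoc4 window. These matches describe letters only, and no binding was measured.

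Library totals ran from 20.9 to 40.8 M counts in KO and from 25.9 to 114 M in WT (M for mega). KO pup 1 stood apart, with 13624 genes detected where the other 7 libraries had 15756 to 17082 and correlations with them of 0.913 to 0.932 across genes. Mitochondrially encoded transcripts took 2.04% to 2.48% of counts in KO and 1.66% to 1.89% in WT, so this share was higher in all KO pups, and its part in the results was not tested. The sample titles give WT pup 5 the cage of the 4 KO pups and the other WT pups a cage of their own, although the growth protocol calls the controls littermates. The file names put WT pup 3 there instead, so cage and genotype can hardly be told apart. The targeted gene Slc2a1 measured 1386, 1511, 1528 and 1602 CPM (counts scaled by TMM to a library total of 1e+06) in KO pups 1 to 4 and 3726, 2238, 3420 and 2792 CPM in WT pups 5, 1, 2 and 3. Every KO pup lay below every WT pup, and the KO mean was 0.495-fold the WT mean, so much of the transcript was still counted (log2 fold change -1.01, SE 0.14, edgeR adjusted p = 0.00619). With cage by file name as a term it was -0.89 and not called (adjusted p = 0.331). The 10 endothelial markers summed to 14040 to 15730 CPM in KO and 14860 to 15950 CPM in WT. Among them Cldn5 (2865 to 3091 CPM in KO, 3214 to 3308 in WT) was lower in all KO pups. So was Tek (595 to 671 and 719 to 902 CPM). Neither passed the test, and both were singled out after their values were seen. Over all tested genes 7.19% did not overlap in either direction, and 485 of 14154 did so with KO lower. The other endothelial markers overlapped between the groups, and of these markers Abcb1a leaned higher in KO (918.5 to 1087 CPM, WT 713 to 934). Those of other cell types were lower: 404 to 2276 CPM for 8 pericyte and smooth muscle markers, 288 to 872 for 6 microglial ones, 163 to 561 for 4 erythroid ones, 61.6 to 151 for 6 oligodendrocyte-lineage ones, 48.5 to 165 for 5 fibroblast ones and 17.9 to 27.2 for 6 neuronal ones. By group, the pericyte and smooth muscle sums ran from 1493 to 2276 CPM in KO and from 404 to 2261 in WT. WT pup 2 gave the 404. The microglial sums ran from 288 to 872 CPM in KO, with KO pup 3 highest, and from 298.5 to 495 in WT. The 6 astrocyte markers summed to 56.1 to 140 CPM in KO and 29.0 to 67.5 CPM in WT. No marker was at 0 in all libraries and no tested marker passed the test. Their part in the results below was not tested. In bulk samples, fewer cells of a type and less RNA per cell cannot be told apart.

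Exoc4 was the member that stood apart. Exoc4 (Sec8), a core scaffold subunit, measured 169, 137, 146 and 137 CPM in KO pups 1, 2, 3 and 4. In WT pups 5, 1, 2 and 3 it measured 76.8, 73.8, 74.4 and 71.9 CPM. The groups were far apart: the lowest KO pup lay 59.7 CPM above the highest WT pup, and the WT pups were close together. The group means were 147 ± 15.1 CPM (KO) and 74.2 ± 2.03 CPM (WT), each with its SD over 4 pups. The KO mean was 1.98-fold the WT mean, with a 95% interval of 1.75 to 2.25 (log2 fold change 0.99, SE 0.08). Without KO pup 1, the highest of the 8, the KO mean was 140 ± 5.55 CPM and the log2 fold change 0.91. Against WT pup 5 alone, the cage mate of the KO pups by title, the KO pups stood at 1.78- to 2.20-fold, and against WT pup 3, their cage mate by file name, at 1.90- to 2.35-fold.

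**Figure D1:**
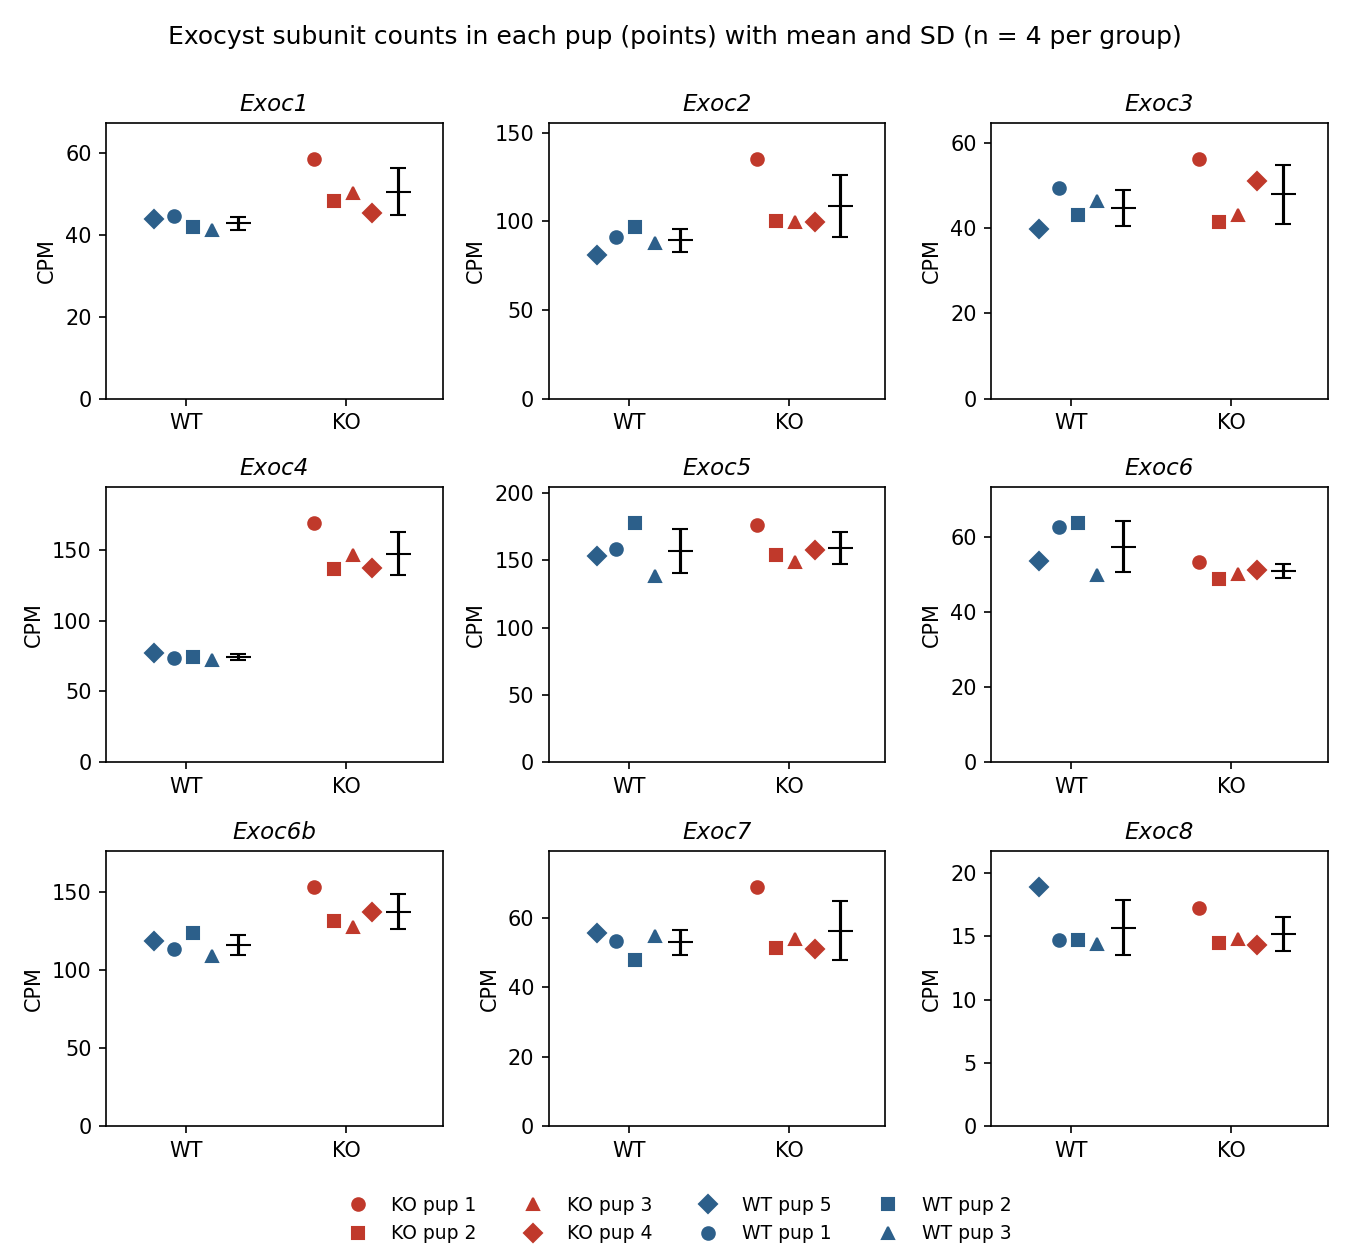
CPM of the 9 exocyst genes (vertical axis, from 0) in each WT pup (blue) and KO pup (red), with the mean and SD of 4 pups per group in black. For Exoc4 the KO pups lie at 137 to 169 CPM and the WT pups at 71.9 to 76.8, while for the other genes the groups overlap or lie next to each other.

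No other subunit passed the test. Over the whole table edgeR's quasi-likelihood test called 55 of 14154 genes at an adjusted p under 0.05 (0.389%), and of the 9 exocyst genes it called 1, Exoc4, for which the complex had been chosen. Of the other 8 it called 0, and DESeq2, which called 351 of all 14154 genes, also called 0. An unadjusted edgeR p under 0.05 was found for 3 of these 8, beside 1575 of all 14154 tested genes. That share is also the base for such counts in the gene lists below. All 9 passed the filter on low counts. The log2 fold changes of the other 8 ran from -0.17 to 0.28 with a median of 0.09, beside a median of 0.00175 over all tested genes, and 6 of the 8 were above 0 against 50.3% of all tested genes. The highest upper bound of their 95% intervals was 0.52, for Exoc2. These intervals leave room for increases of up to 1.44-fold in single subunits. With cage by sample title as a term, 0 of the 9 genes were called, and the log2 fold change of Exoc4 was 0.94.

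**Figure D2:**
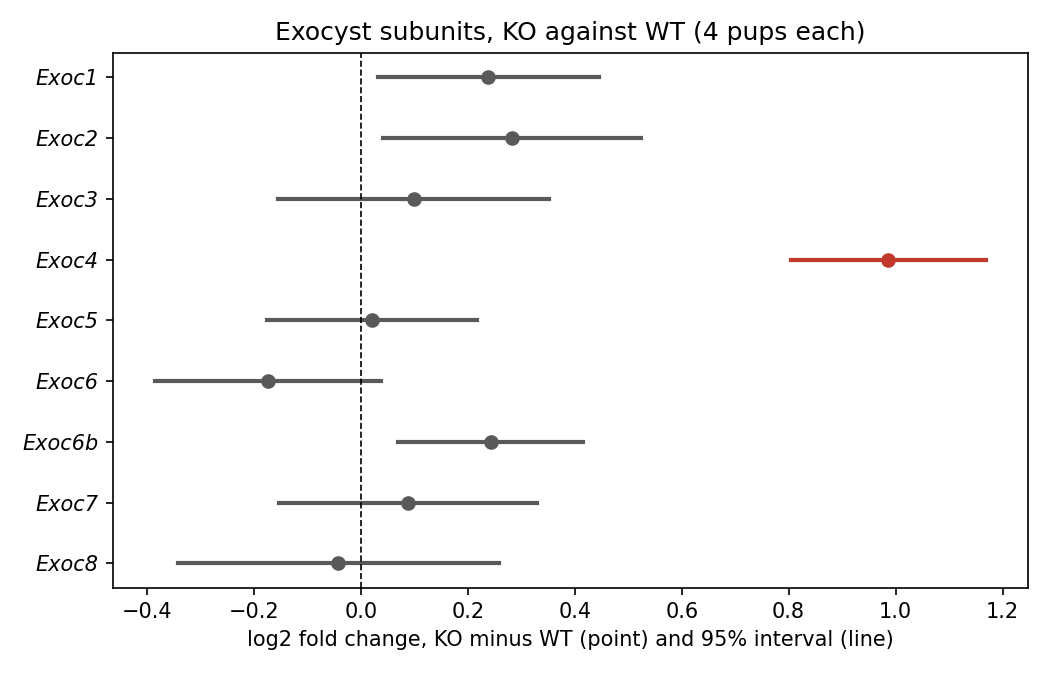
Log2 fold change of each exocyst gene, KO minus WT (points, horizontal axis), with its 95% interval (lines) from 4 pups per group; red marks the gene called over all genes tested. Exoc4, whose value guided the choice of the genes, has an interval of 0.80 to 1.17, and the highest interval of the other 8 ends at 0.52.

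In the module of Exoc4, 2 of the 3 partners had all KO pups above all WT pups. So had Exoc6b of the other module and 3.77% of all tested genes. Exoc1 (Sec3), which binds phosphoinositides at the target membrane, measured 58.5, 48.3, 50.2 and 45.2 CPM in KO pups 1, 2, 3 and 4. In WT pups 5, 1, 2 and 3 it measured 43.7, 44.6, 41.9 and 41.1 CPM. The groups were separated by only 0.675 CPM, and the fold change of 1.18 (95% interval 1.02 to 1.36) did not pass (edgeR adjusted p = 0.367). Exoc2 (Sec5), a binding partner of the Ral GTPases, measured 135, 100.4, 99.9 and 99.5 CPM in KO pups 1, 2, 3 and 4. Its WT values were 81.0, 91.3, 96.8 and 88.1 CPM in pups 5, 1, 2 and 3. KO pup 1 lay far above the other 3 KO pups, which stood next to the highest WT pup. The log2 fold change of Exoc2 was 0.28 (SE 0.11, edgeR adjusted p = 0.361) with all pups and 0.16 (adjusted p = 0.469) without KO pup 1. Exoc3 (Sec6), known for contacts with SNARE proteins, measured 56.2, 41.4, 43.0 and 51.1 CPM in KO and 39.8, 49.5, 43.2 and 46.4 CPM in WT, in the same order of pups. Its groups overlapped (log2 fold change 0.10, 95% interval -0.15 to 0.35).

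Among the genes of the other module, Exoc6b was the one whose groups did not overlap. Exoc6b (a form of Sec15) measured 153, 132, 128 and 137 CPM in KO pups 1, 2, 3 and 4 and 119, 113, 124 and 109 CPM in WT pups 5, 1, 2 and 3. The lowest KO pup lay 4.03 CPM above the highest WT pup. The fold change was 1.18 (95% interval 1.05 to 1.33) and did not pass (edgeR adjusted p = 0.255). Its paralogue Exoc6, an effector of the recycling GTPase Rab11, had the lowest fold change of the 9: it measured 53.4, 48.8, 50.0 and 51.3 CPM in KO and 53.5, 62.5, 63.6 and 49.8 CPM in WT. WT pups 1 and 2 were high and WT pups 5 and 3 lay near the KO pups (log2 fold change -0.17, 95% interval -0.39 to 0.04). Exoc5 (Sec10), which joins the Sec15 subunit to the rest of the complex, ranged from 149 to 176 CPM in KO and from 138 to 178 CPM in WT (log2 fold change 0.02, 95% interval -0.18 to 0.22). Exoc7 (Exo70), the other membrane-binding subunit, ranged from 51.0 to 68.8 CPM in KO, with KO pup 1 at the top, and from 47.9 to 55.7 CPM in WT (0.09, interval -0.15 to 0.33). Exoc8 (Exo84), a partner of the Ral GTPases like Exoc2, was the gene with the lowest counts, 14.4 to 17.2 CPM in KO and 14.4 to 18.9 CPM in WT, with WT pup 5 at the top (-0.04, interval -0.34 to 0.26).

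Altogether 4 of the 9 genes did not overlap between the groups, Exoc4 and 3 others, and in all 4 the KO pups were higher. Over all tested genes 7.19% did not overlap in either direction, and 3.77% did so with KO higher. The 3 others lay on this side by 0.675 to 4.03 CPM, and KO pup 1 carried part of each difference. KO pup 1 was the highest KO library for all 9 exocyst genes, whereas it was highest for 32.9% of all tested genes. Without it, the log2 fold changes of Exoc1, Exoc2 and Exoc6b were 0.16, 0.16 and 0.19, those of Exoc5, Exoc6, Exoc7 and Exoc8 were between -0.20 and -0.02, Exoc3 was at 0.014, and Exoc4 stood at 0.91. The part of the low gene detection of KO pup 1 in these values was not tested.

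Counted per kilobase of annotated exon, the order of the subunits differed between the groups, most for Exoc4. By KO means Exoc2 (15.6 ± 2.53 CPM per kilobase) stood above Exoc6 (14.4 ± 0.555), with overlapping ranges. Likewise Exoc6b (9.08 ± 0.749) stood above Exoc5 (8.84 ± 0.670) in KO. In WT the means, in CPM per kilobase, were 16.2 ± 1.91 for Exoc6, 12.8 ± 0.943 for Exoc2 and 12.1 ± 0.801 for Exoc7. Exoc5, Exoc6b and Exoc3 followed at 8.71 ± 0.905, 7.67 ± 0.412 and 7.45 ± 0.692, and then Exoc4 at 5.87 ± 0.160, Exoc1 at 3.56 ± 0.133 and Exoc8 at 3.41 ± 0.470. The ranges of neighbouring genes overlapped between Exoc2 and Exoc7, between Exoc5, Exoc6b and Exoc3, and between Exoc1 and Exoc8, so their order within these sets was not resolved. Exoc4 was 7th of the 9 in each WT pup and 4th in each KO pup, at 11.6 ± 1.20 CPM per kilobase in KO. It made up 7.28% to 7.97% of the summed level of the 9 genes in WT pups and 12.8% to 13.8% in KO pups. The sum over the other 8 genes ran from 68.4 to 74.7 in WT and from 71.2 to 73.7 in KO pups 2, 3 and 4, with KO pup 1 at 88.1. The exon length is the union over all annotated transcripts, from 3.54 kb for Exoc6 to 18.0 kb for Exoc5, so genes with long unused exons are understated.

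**Figure D3:**
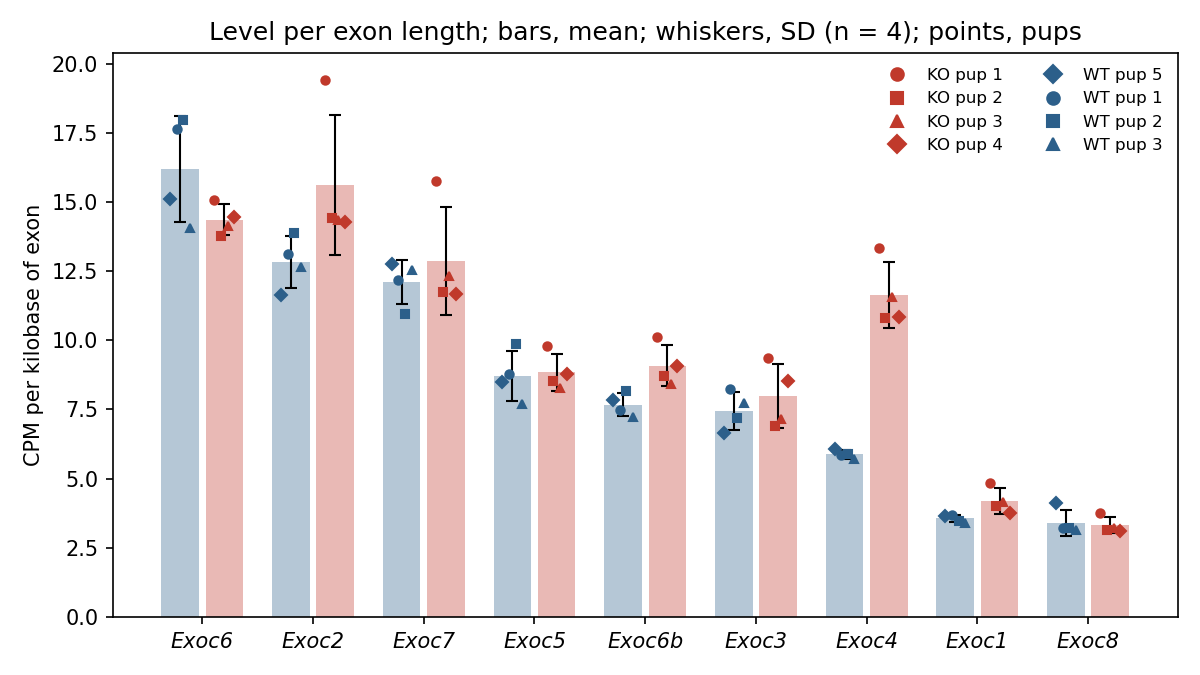
Level per exon length (vertical axis, CPM per kilobase of exon) of the 9 exocyst genes, ordered by the WT mean; bars are means, whiskers SD and points single pups (n = 4 per group, WT blue, KO red). Exoc4 stands at 5.87 in WT, the 7th place, and at 11.6 in KO, the 4th.

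Reads of Exoc4 could be assigned without ambiguity as far as the annotation shows. None of its exon bases were shared with another gene, and none of the 12537 windows of 100 bases in its transcripts, the read length of the study, occurred in transcripts of another gene. The same held for Exoc1, Exoc2, Exoc3, Exoc6, Exoc6b and Exoc8, so that Exoc6 and Exoc6b shared no such window. Exoc5 shared 528 exon bases (2.94%) with the antisense gene Ap5m1, and Exoc7 shared 293 (6.71%) with the antisense transcript Gm26730. The sources used here do not give the strand setting of the counting, so reads from those stretches cannot be told apart. Ap5m1, a subunit of an adaptor complex, measured 41.2 ± 2.96 CPM in KO against 35.9 ± 5.80 CPM in WT (edgeR adjusted p = 0.595). Gm49204, which lies inside Exoc5 without sharing exon bases, measured 4.49 ± 0.730 and 5.62 ± 1.78 CPM (adjusted p = 0.713). Hus1b inside Exoc2 had 81 counts over all 8 libraries and was not tested, nor were Gm43168 and Gm43164 inside Exoc4, with 6 and 0 counts.

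None of the tested genes around Exoc4 passed the test. Within 500 kb of its ends the annotation lists 22 genes, of which 10 were counted and 6 tested, and edgeR called 0 of the 6 (0.389% of all genes), as did DESeq2, with 1 at an unadjusted p under 0.05. Chchd3, a mitochondrial cristae protein gene 189 kb upstream, measured 56.9 ± 4.09 CPM in KO against 57.6 ± 3.66 CPM in WT (log2 fold change -0.02, SE 0.09). Downstream, Lrguk at 55.5 kb was barely detected, at 0.769 ± 0.541 and 0.740 ± 0.293 CPM, and Slc35b4, a nucleotide sugar transporter gene at 179 kb, measured 39.6 ± 4.25 and 41.7 ± 1.44 CPM (-0.07, SE 0.09). The aldo-keto reductase genes lay further downstream. Akr1b3, which encodes aldose reductase, measured 34.3 ± 2.98 CPM in KO against 27.5 ± 4.70 CPM in WT (0.32, SE 0.13, edgeR adjusted p = 0.388, groups overlapping). Akr1b10 ranged from 8.67 to 11.6 CPM in KO and from 7.49 to 8.46 CPM in WT, a separation with KO higher that 3.77% of all tested genes had (log2 fold change 0.30, SE 0.16, adjusted p = 0.527 in edgeR), and Akr1b8 measured 1.58 ± 1.39 and 1.02 ± 0.848 CPM (0.64, SE 1.01).

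**Figure D4:**
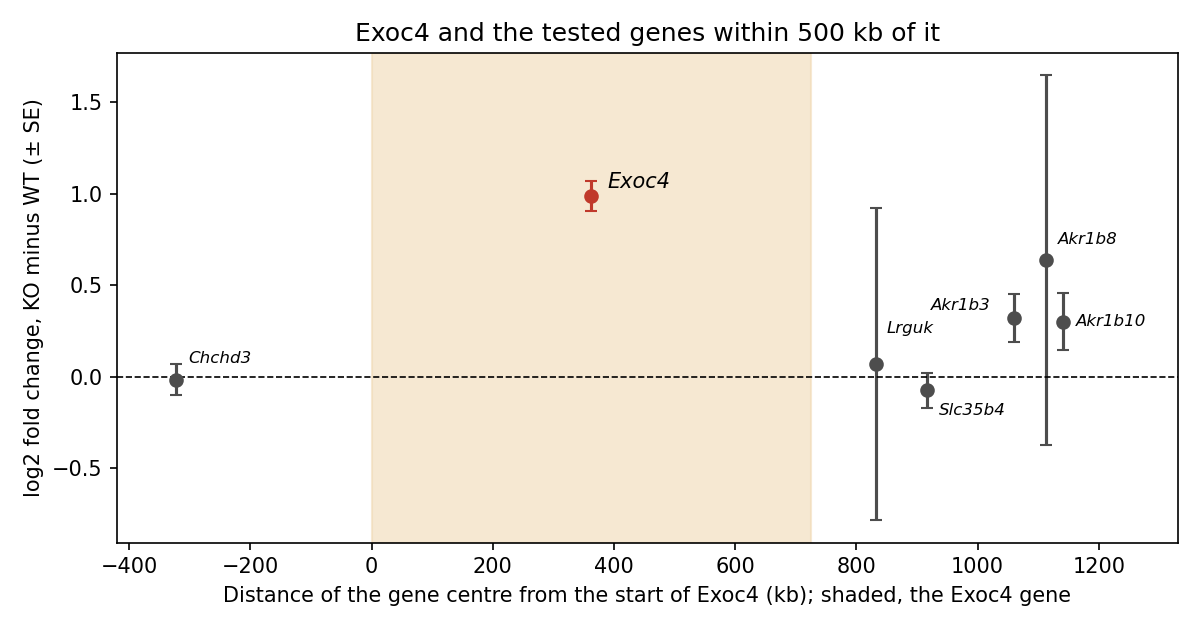
Log2 fold change, KO minus WT, with SE (vertical axis) for Exoc4 and the 6 tested genes within 500 kb of it, placed by the distance of the gene centre from the start of Exoc4 in kb; the shaded band is the Exoc4 gene. Exoc4 stands at 0.99, Chchd3 and Slc35b4 at -0.02 and -0.07, and the barely detected Lrguk and Akr1b8 have wide errors.

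No regulator that recruits the exocyst passed the test. Over all tested genes edgeR called 0.389% and DESeq2 351 of 14154. With shares this low, 0 calls in short lists say little about the regulators. In a list of 11 small GTPases and their exchange factor, among them Rala, Ralb, Cdc42, Arf6 and the Rab proteins of recycling vesicles, edgeR called 0, DESeq2 called 0 and 2 had an unadjusted p under 0.05. The median log2 fold change was -0.06. Rab8b, a GTPase of vesicles bound for the surface, measured 72.8 ± 10.6 CPM in KO against 59.5 ± 4.85 CPM in WT (0.29, SE 0.11, edgeR adjusted p = 0.355). Rab11a, the GTPase that binds the Sec15 subunit, measured 172 ± 11.3 CPM in KO against 193 ± 6.87 CPM in WT. It was lower in every KO pup and did not pass (-0.16, SE 0.07, edgeR adjusted p = 0.426). Such a separation with KO lower was found for 485 of all 14154 tested genes. KO pup 1 was the lowest at 155 CPM, with the other KO pups at 176 to 179. Rala and Ralb stood at 0.08 and -0.14. Among 9 exchange factors and GTPase-activating proteins of Ral, 0 were called by edgeR or DESeq2 and 0 had an unadjusted p under 0.05 (median 0.11), with Ralgds at 109 ± 5.30 and 101 ± 3.88 CPM and Rgl2 at 177 ± 16.0 and 195 ± 11.9 CPM in KO and WT. Of 3 kinases that make the phosphoinositide bound by Exoc1 and Exoc7, edgeR and DESeq2 called 0 and 1 had an unadjusted p under 0.05. This was Pip5k1b, at 27.7 ± 3.07 CPM in KO and 32.9 ± 2.77 CPM in WT (edgeR adjusted p = 0.439), while Pip5k1a stood at 85.2 ± 6.27 and 81.7 ± 5.65 CPM.

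Among genes that act next to the exocyst, the gene of von Willebrand factor was the single one called. Of 14 tested SNARE genes and SNARE regulators of the plasma membrane, edgeR and DESeq2 called 0, 0 had an unadjusted p under 0.05, and the median log2 fold change was 0.03. Stx3 and Snap23, SNAREs of the target membrane, measured 36.1 ± 1.45 and 89.6 ± 4.09 CPM in KO and 31.6 ± 5.08 and 97.5 ± 5.96 CPM in WT. The relatives of Exoc3 (Exoc3l, Exoc3l2, Exoc3l4 and Tnfaip2) gave 0 calls by edgeR or DESeq2 and 0 at an unadjusted p under 0.05. Exoc3l was the most abundant of them, at 110 ± 8.90 CPM in KO and 123 ± 15.3 CPM in WT, and Tnfaip2, which encodes M-Sec, measured 7.64 ± 0.650 and 8.72 ± 1.67 CPM. In the list of 10 genes for the cargo and release of Weibel-Palade bodies, edgeR called 1 gene lower and none higher, as did DESeq2. Over all tested genes edgeR called 0.389% and DESeq2 351 of 14154, in either direction. The list was chosen with earlier results of these data known, so its call is a description. In it 3 genes had an unadjusted p under 0.05, and the median log2 fold change was -0.48. In 2 of the 10, Vwf and Selp (named after its values were seen), all KO pups lay below all WT pups. Over all tested genes 485 of 14154 did so, and 7.19% did not overlap in either direction. Selp, which encodes P-selectin, was barely detected, at 0.434 ± 0.378 CPM in KO and 1.26 ± 0.310 CPM in WT (edgeR adjusted p = 0.537). Vwf, the main cargo, fell from 2110 ± 286 to 1173 ± 85.9 CPM (log2 fold change -0.85, SE 0.10, edgeR adjusted p = 0.00298, lower in 4 of 4 KO pups). With cage by file name as a term it was -0.65 and not called (adjusted p = 0.270). Myrip, an adaptor that ties these granules to the cytoskeleton, measured 15.1 ± 3.24 CPM in KO against 28.7 ± 16.2 CPM in WT and did not pass (adjusted p = 0.361).

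Other tethering complexes served for comparison. Among 38 genes of the COG, GARP and EARP, NRZ, HOPS and CORVET, and TRAPP complexes, all tested, edgeR and DESeq2 called 0 and 2 had an unadjusted p under 0.05. Over all tested genes edgeR called 0.389% and DESeq2 351 of 14154. The log2 fold changes of the 38 ran from -0.28 to 0.24 with a median of 0.00117, and 19 of 38 were above 0. Exoc4 had been chosen for its high value of 0.99, so setting these genes beside it tests nothing. Vps11, a HOPS and CORVET core subunit, measured 77.8 ± 3.25 CPM in KO against 67.8 ± 2.43 CPM in WT (edgeR adjusted p = 0.319). Trappc6b, a TRAPP core subunit, measured 49.3 ± 4.60 and 41.7 ± 2.97 CPM (adjusted p = 0.367). In both, all KO pups lay above all WT pups, and they were the 2 of 38 tether genes that did not overlap, a share near the 7.19% of all tested genes. The remaining genes picked by the naming rule had overlapping groups: Cog5 and Cog7 of the Golgi COG complex at 0.14 and 0.18 on the log2 scale, Vps50 and Vps52 of EARP and GARP at 0.16 and 0.06, Zw10 and Rint1 of NRZ at -0.12 and 0.04, Vps33a at 0.12 and Trappc10 at 0.14.

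The genes whose profile over the 8 libraries was most like that of Exoc4 were Phlda3, Ei24, Zmat3, Ccng1 and Nav2, with Pearson correlations of log2 CPM of 0.983, 0.982, 0.982, 0.978 and 0.978 among 9871 genes. These correlations are descriptions, since the libraries fall into the 2 genotype groups that also set Exoc4 apart. Ei24, which encodes a membrane protein of the endoplasmic reticulum, measured 181, 144, 156 and 160 CPM in KO pups 1, 2, 3 and 4 and 107, 109, 105 and 111 CPM in WT pups 5, 1, 2 and 3. As for Exoc4, KO pup 1 was the highest and the WT pups lay close together. Zmat3, which encodes an RNA-binding zinc finger protein, measured 81.0 ± 5.42 CPM in KO against 34.7 ± 2.26 CPM in WT. Ccng1, which encodes cyclin G1, stood at 114 ± 1.97 and 39.5 ± 4.43 CPM, and Phlda3, an inhibitor of Akt signalling, at 34.7 ± 3.42 and 2.85 ± 0.870 CPM. Nav2, a microtubule-associated protein gene, measured 32.8 ± 3.84 and 12.8 ± 1.99 CPM. The closest exocyst genes were Exoc6b with a correlation of 0.878 (98th of 9871), Exoc1 with 0.853 (145th) and Exoc2 with 0.768 (397th), and Exoc6 was at -0.547.

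**Figure D5:**
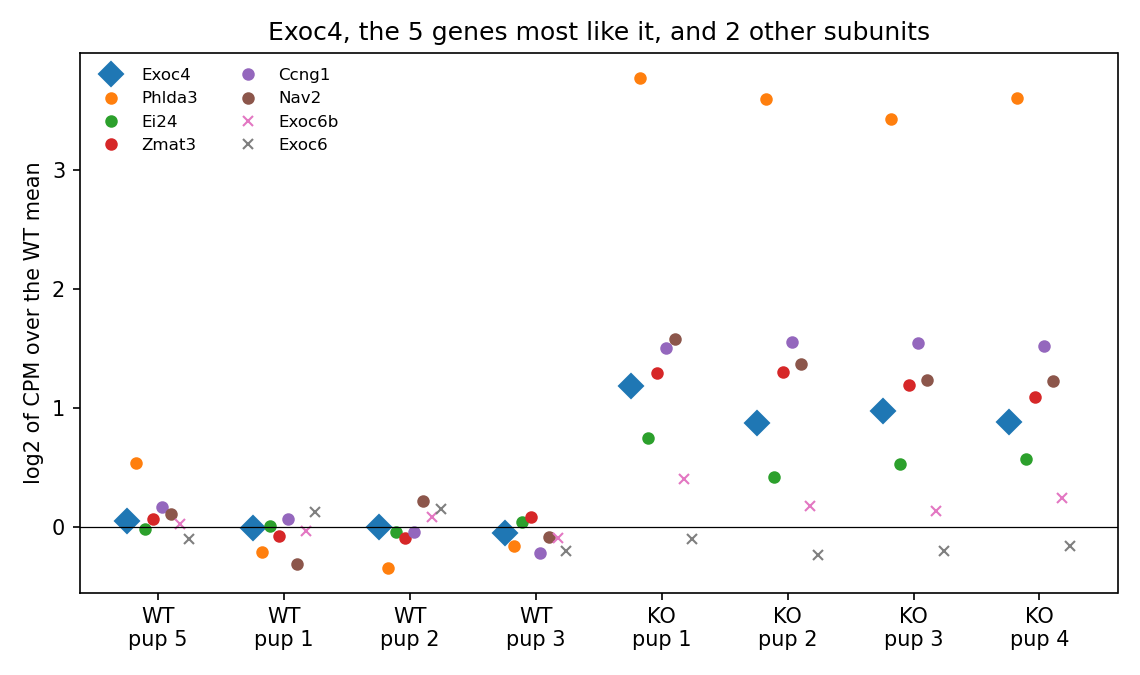
Log2 of CPM over the WT mean (vertical axis) in each pup for Exoc4 (diamonds), the 5 genes with the most similar profile (circles) and the paralogues Exoc6b and Exoc6 (crosses). All 5 genes lie above their WT range in every KO pup, as does Exoc4. Exoc6b lies slightly above its WT range, while Exoc6 lies slightly below its WT mean in every KO pup.

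For the genes most like Exoc4 the promoter windows were searched for the same p53 half-site, after their values were seen. The 30 bases around each match are set beside those of Exoc4, with the match in capitals, to show the letters in which they differ. The windows are chr6:33248915-33248944 (plus strand) for Exoc4, chr9:36797325-36797354 (minus strand) for Ei24 and chr11:40755452-40755481 (minus strand) for Ccng1, all in GRCm38.p6 from RefSeq.

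Exoc4: tttattgtccAGGCATGCCCgggaccggca
Ei24: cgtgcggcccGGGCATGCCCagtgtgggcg
Ccng1: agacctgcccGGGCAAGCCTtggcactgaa

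The windows of Phlda3 and Nav2 held no match. Zmat3 was not in the table. With a match for 9.55% of all genes, these letters are a description of the sequences and not of binding.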

How the data were processed

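Per the labels' protocols, endothelial cells were sorted from brains of postnatal day 6 pups, libraries were made with a stranded poly(A) kit, and single-end reads of 100 bases were sequenced. For each of 8 libraries the authors deposited a table of raw gene counts. The submitters' processing notes name STAR, featureCounts and GRCm38; the sources used here give no versions, annotation or strand setting. GENCODE M21 named 25587 of the 25700 identifiers; the other 113 stayed in the tests.

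Genotype groups came from the sample titles. Genes passing filterByExpr (minimum count 10, minimum total 15; 14154 genes) were scaled by TMM (factors 0.978 to 1.03) and fitted with genotype in edgeR 4.0.16 (R 4.3.3), by the quasi-likelihood test with Benjamini-Hochberg adjustment over all tested genes at a threshold of 0.05. DESeq2 1.42.0 was an alternative. The fit was tested on simulated data. Standard errors were the fold change over the root of its F statistic, intervals cover 95%, and log2 CPM used a prior count of 2. No pair of libraries held the same counts (chi-square per gene at least 13.9). Each library is a different pup by its title, so p-values measure the spread between pups.

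The members and gene lists were chosen with earlier results of these data known. Named genes are all members, Slc2a1, called genes and the 2 smallest p per list, tested neighbours and overlapping genes, and the 5 most similar profiles. Vamp7 had no row and was not analysed here. Pup numbers 1 to 3 occur in both groups but, by sample title, name pups of different cages. By file name WT pup 3 shares the cage of the KO pups. Deviations from the group means of same-numbered pups correlated at -0.0294, 0.0261 and -0.0711, so they were not paired. Alternatives changed the scaling, filter, test, cage term, pairing and libraries.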

Additional observations from a re-analysis of the deposited data

Results flagged for a closer look

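In 8 of 86 groups of 4 pups checked (43 genes in KO and in WT), 1 pup lay far from the other 3, its gap exceeding 0.829 of the group's range. Chance flags about 1 in 20 such groups. KO pup 1 was set apart for Exoc2 (135 CPM, the others 99.5 to 100.4), Exoc7 (68.8 CPM, the others 51.0 to 53.8), Exoc8 (17.2 CPM, the others 14.4 to 14.8) and Rab11a (155 CPM, the others 176 to 179). WT pup 5 was set apart for Exoc8 (18.9 CPM, the others 14.4 to 14.7) and Phlda3 (4.14 CPM, the others 2.24 to 2.55). WT pup 2 was set apart for Cog5 (52.1 CPM, the others 47.6 to 48.0) and KO pup 4 for Vps11 (73.0 CPM, the others 78.7 to 79.8). Exoc4 was not among them.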

How the results depend on the processing

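The log2 fold change of Exoc4 stayed between 0.91 and 1.04 in 16 alternatives. No other member was called in any of the 16. With cage by sample title as a term, 0 members were called and Exoc4 was at 0.94. That fit rests on WT pup 5 alone for the genotype difference. Exoc1, Exoc2 and Exoc6b stayed above 0 and uncalled in all 16.

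Small fold changes of other members turned sign. With cage by file name as a term, Exoc6 was at 0.031 and Exoc8 at 0.082, and Slc2a1 at -0.89 (adjusted p = 0.331). Without KO pup 1, Exoc5 was at -0.033 and Exoc7 at -0.023. Without KO pup 1 and WT pup 2, Exoc3 was at -0.0030 and Exoc7 at -0.069. Leaving out single pups gave -0.035 to 0.083 for Exoc5, -0.023 to 0.13 for Exoc7 and -0.11 to 0.051 for Exoc8. The cause was not tested.

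Genes called, 55 with all pups, numbered 84 without the filter, 351 by DESeq2 (158 higher, 193 lower), 16 with cage by title and 10 with cage by file name, and ranged from 32 to 85 without single pups (85 without KO pup 1, 36 without KO pup 2, 32 without KO pup 3). With the pup number as replicate block over the 6 libraries of pups 1 to 3, 11 genes were called against 23 without the block, a comparison added after seeing the data. With the block Exoc8 was at 0.082 and Slc2a1 at -0.91 (adjusted p = 0.0644), and without it they were at 0.086 and -0.93 (adjusted p = 0.0524). Vwf was called in 14 of 16 alternatives, and not with the block (-0.81, adjusted p = 0.101) or with cage by file name.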
